A study of Mus musculus with 11 samples.

Results

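The immediate early genes of this report are 10 genes chosen by symbol, *Fos*, *Fosb*, *Jun*, *Junb*, *Jund*, *Egr1*, *Ier2*, *Ier5*, *Atf3* and *Nr4a1*, and all 10 were found among the 35814 symbols measured. They were followed across 11 bulk RNA-seq libraries of renal CD4+ T cells, 1 library per mouse, taken on day 2 after ischemia–reperfusion injury (IRI), a model in which both renal pedicles of male C57BL/6 mice of 8 to 12 weeks were clamped for 45 min. The control group had 3 CD4cre mice, which express Cre recombinase from the CD4 promoter and for which the study names no floxed gene. A second group had 5 CD4IKK1Δ mice, in which this Cre was combined with a floxed *Chuk* gene (encoding IKK1), and the third had 3 CD4NIKΔ mice, in which it was combined with a floxed *Map3k14* gene (encoding NIK). All groups thus carried CD4cre and all underwent IRI, so that neither mice without Cre nor sham-operated mice enter any comparison. The CD4 promoter is also active in developing thymocytes that later become CD8+ cells, and a recombined allele can still give transcript from its remaining exons.

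Immediate early genes are transcribed within minutes of a stimulus without new protein synthesis, and their transcripts are short-lived. In T cells they are switched on by antigen receptor signalling through mitogen-activated protein kinases and calcium, and also by stress, tissue digestion and cell sorting. Fos and Jun proteins pair as the transcription factor AP-1, which binds together with NFAT at cytokine genes, whereas *Egr1* and *Nr4a1* encode a zinc finger factor and an orphan nuclear receptor that report receptor signal strength.

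The sequences upstream of the start sites were taken from the RefSeq promoter table of GRCm38.p6, in which 8 of the 10 members matched, all except *Egr1* and *Ier2*. Shown are the 250 bases before the start of *Fos* (chr12:85473640-85473889, plus strand), *Junb* (chr8:84978749-84978998, minus strand) and *Nr4a1* (chr15:101266596-101266845, plus strand), whose levels moved together over the libraries, and of *Fosb* (chr7:19310046-19310295, minus strand), whose level did not follow them. Capitals mark the half-site of the cyclic AMP response element (CRE), TGACG or CGTCA on the other strand, and the kappa B motif, the binding motif of NFκB.
Fos: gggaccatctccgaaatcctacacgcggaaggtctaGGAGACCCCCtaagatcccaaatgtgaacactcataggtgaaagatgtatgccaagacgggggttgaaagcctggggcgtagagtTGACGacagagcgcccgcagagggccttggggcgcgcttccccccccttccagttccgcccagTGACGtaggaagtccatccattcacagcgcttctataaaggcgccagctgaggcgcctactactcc
Junb: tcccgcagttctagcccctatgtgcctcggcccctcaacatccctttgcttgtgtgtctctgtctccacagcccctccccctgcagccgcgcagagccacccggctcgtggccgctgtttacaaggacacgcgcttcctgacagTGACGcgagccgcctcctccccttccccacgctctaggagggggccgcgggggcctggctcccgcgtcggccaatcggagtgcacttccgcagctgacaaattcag
Nr4a1: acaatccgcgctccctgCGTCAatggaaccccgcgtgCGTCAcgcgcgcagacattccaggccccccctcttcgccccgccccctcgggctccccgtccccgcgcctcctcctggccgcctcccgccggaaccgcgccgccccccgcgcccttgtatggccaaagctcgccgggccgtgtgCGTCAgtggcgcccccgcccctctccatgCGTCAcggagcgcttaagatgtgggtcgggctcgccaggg
Fosb: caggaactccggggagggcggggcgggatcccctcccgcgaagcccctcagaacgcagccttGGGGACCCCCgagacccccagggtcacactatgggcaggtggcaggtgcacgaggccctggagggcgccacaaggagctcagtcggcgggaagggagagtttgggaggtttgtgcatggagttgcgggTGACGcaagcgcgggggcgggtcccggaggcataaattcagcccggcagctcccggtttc
The CRE half-site, bound by CREB and ATF proteins, was present on either strand in 5 of the 8 member promoters (*Fos*, *Fosb*, *Junb*, *Atf3* and *Nr4a1*), compared with 17.8% of all 32851 promoters of the same length. *Nr4a1* held 4 of them and *Fos* held 2, at bases −129 to −125 and −66 to −62 before the start. The full CRE, TGACGTCA, which contains the half-site, was found in 0 of 8 members and in 1.55% of all promoters. The kappa B motif was found in *Fos*, at −214 to −205, and in *Fosb*, at −188 to −179, compared with 7.25% of all promoters. The AP-1 motif TGANTCA was found in 0 of 8 members (6.75% of all promoters), as was the CArG box of the serum response factor (1.47%). The EGR motif GCGNGGGCG was found in *Fosb* and *Nr4a1* (4.70% of all promoters), the TATA box TATAAA in *Fos* (12.4%), and the CCAAT box in *Jun*, *Junb* and *Ier5* (33.8%). The Sp1 motif GGGGCGGGG, which can overlap the EGR motif, was found in *Atf3* and *Nr4a1* (10.4%). The median GC content was 63.2% in the 8 member promoters and 52.4% in all promoters. A match of letters in this window is a description of the sequence and shows no binding. Sites further upstream, or with other letters than those searched, were not looked for.

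On the assembly GRCm39 with the GENCODE M39 annotation, the AP-1 members lay at chr12:85520658-85524047 on the plus strand (*Fos*), chr7:19036621-19043976 on the minus strand (*Fosb*), chr4:94937271-94940459 on the minus strand (*Jun*), chr8:85701113-85705359 on the minus strand (*Junb*), chr8:71151599-71153265 on the plus strand (*Jund*) and chr1:190902493-190950241 on the minus strand (*Atf3*). The other members lay at chr18:34992876-34998049 on the plus strand (*Egr1*), chr8:85387960-85389483 on the minus strand (*Ier2*), chr1:154972107-154975382 on the minus strand (*Ier5*) and chr15:101151980-101172681 on the plus strand (*Nr4a1*). The canonical transcripts of 5 members, *Jun*, *Junb*, *Jund*, *Ier2* and *Ier5*, are a single exon without introns. *Junb* overlaps *Prdx2* on the opposite strand, and *Jun*, *Jund*, *Ier5*, *Atf3* and *Nr4a1* overlap annotated noncoding genes. Whether the counting used strand is not given in the sources used here, and 1 partner each of *Ier5* and *Nr4a1* lies on the same strand, so that reads from the shared stretches may be divided between the genes in an uncertain way.

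The libraries held 15751632 to 25737046 estimated counts each, and 3 counts, used as the floor of detection, equal 0.117 to 0.190 CPM (counts scaled to library size). Floors cover counting error only, because no molecular identifiers separate molecules from amplified copies. *Chuk* had 325 to 683 counts in CD4cre, 258 to 588 in the libraries labelled CD4IKK1Δ and 419 to 807 in those labelled CD4NIKΔ. *Map3k14* had 294 to 506 counts in CD4cre, 29 to 186 in CD4IKK1Δ and 232 to 626 in CD4NIKΔ. Neither targeted gene was thus below the CD4cre range in its own labelled group as a whole, and the group names below are those of the labels. The libraries also differed in T cell transcripts, with 12558 to 35820 counts of the T cell receptor constant regions (*Trac*, *Trbc1* and *Trbc2*) in CD4cre, 41, 868, 11413, 5277 and 5644 in CD4IKK1Δ replicates 1 to 5, and 60124 to 111648 in CD4NIKΔ. CD4IKK1Δ replicates 1 and 2 stood apart, and results are also given without them. The summed level of 15 neuron and glia markers, such as *Stmn2* and *Slc17a7*, was 3329 to 4135 CPM in CD4cre, 4323 to 4905 in CD4IKK1Δ and 1118 to 2362 in CD4NIKΔ, and it exceeded the sum of 16 T cell markers in all 3 CD4cre libraries (1.05 to 2.36 times) and all 5 CD4IKK1Δ libraries (2.83 to 20.3 times). None of these 15 markers was at 0 in all libraries of a group. In bulk samples, fewer cells of a type and less RNA per cell cannot be told apart.

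To see how strongly the group of genes as a whole was expressed, the levels of the 10 members were first summed in each library, with CPM normalized by TMM factors. The sum was 15597, 6533 and 6811 CPM in the CD4cre libraries, 551, 921, 1823, 2703 and 2366 CPM in CD4IKK1Δ, and 9899, 17483 and 20059 CPM in CD4NIKΔ. All 5 CD4IKK1Δ libraries lay below all others, and the other 2 groups overlapped because CD4cre replicate 1 lay above CD4NIKΔ replicate 1. The group values were 9647 ± 5155 (SD, n = 3), 1673 ± 920.2 (SD, n = 5) and 15814 ± 5282 (SD, n = 3). As a share of all counts, the members made up 0.685% to 1.58% in CD4cre, 0.0532% to 0.281% in CD4IKK1Δ and 0.959% to 1.80% in CD4NIKΔ.

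**Figure D1:**
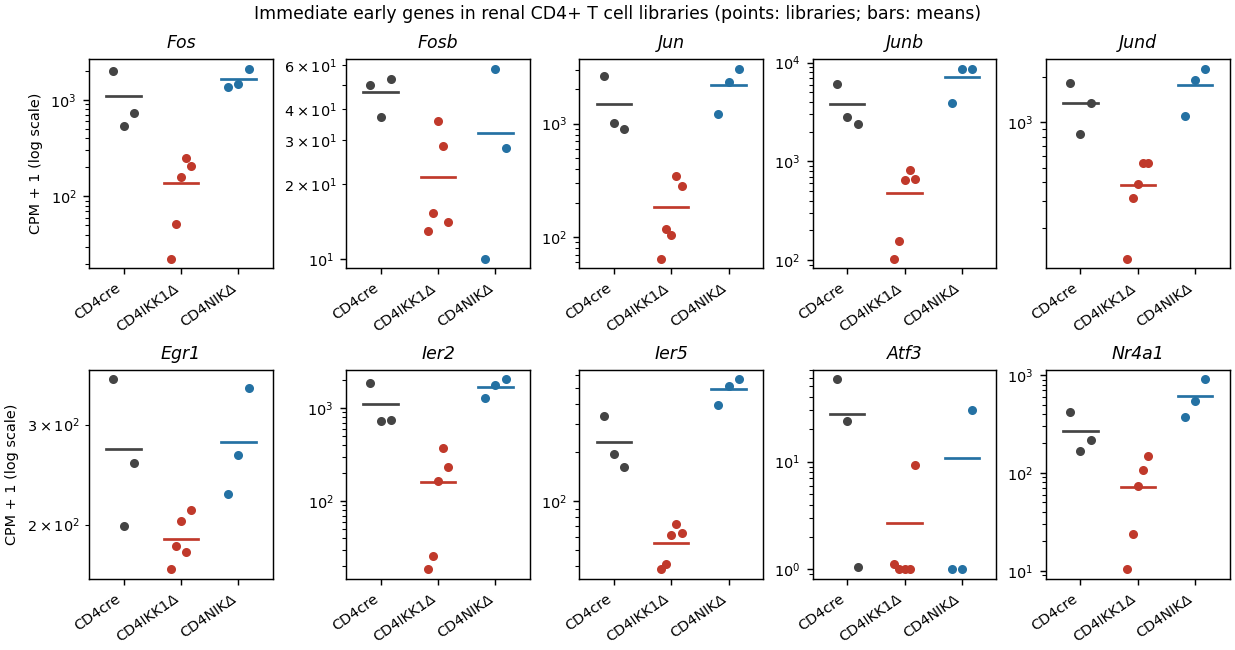
Level of each immediate early gene (CPM + 1, logarithmic axis with its own range in each panel) in the 3 CD4cre, 5 CD4IKK1Δ and 3 CD4NIKΔ libraries. Points are libraries and bars are group means. The 5 CD4IKK1Δ libraries of *Fos* (21.4 to 249 CPM) lie below the 3 CD4cre libraries (540 to 1973 CPM), whereas *Atf3* is near 0 in 1 CD4cre, 4 CD4IKK1Δ and 2 CD4NIKΔ libraries.

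Levels can be compared between genes only per length, and mean CPM per kilobase of the canonical transcript were used for this. *Junb* was the highest member in all 3 groups, with 2090 in CD4cre, 264 in CD4IKK1Δ and 3922 in CD4NIKΔ. In CD4cre it was followed by *Jund* (802), *Ier2* (724), *Fos* (512) and *Jun* (471), whose ranges over the libraries overlapped with each other but not with that of *Junb*. Next came *Nr4a1* (105), *Ier5* (70.4) and *Egr1* (60.3), which again overlapped. Last were *Atf3* (13.5, from 0.0253 to 28.8 in the libraries) and *Fosb* (12.1), whose ranges overlapped too. Replicate 1 was the highest CD4cre library for all members except *Fosb* and raised their means. The order in CD4NIKΔ was similar, with *Ier2* (1107) before *Jund* (1058) and *Fosb* (8.20) before *Atf3* (4.90). *Egr1* moved up to sixth place in CD4IKK1Δ (41.8), ahead of *Nr4a1* (28.0) and *Ier5* (16.6), and there the ranges of the neighbouring genes from *Junb* down to *Ier5* overlapped.

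The mix of members thus differed between groups. The ratio of *Junb* to *Egr1*, both in CPM, was 17.0, 14.2 and 9.44 in the CD4cre libraries, 0.616, 0.847, 3.18, 4.61 and 3.15 in CD4IKK1Δ, and 17.5, 32.7 and 25.1 in CD4NIKΔ. The 3 groups did not overlap in this ratio. *Egr1* made up 2.31% to 3.75% of the summed CPM of the members in CD4cre, 6.59% to 30.1% in CD4IKK1Δ and 1.51% to 2.28% in CD4NIKΔ. The ratio of *Fos* to *Junb*, by contrast, overlapped between all groups, with 0.192 to 0.322 in CD4cre, 0.210 to 0.330 in CD4IKK1Δ and 0.170 to 0.347 in CD4NIKΔ.

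The comparison of CD4IKK1Δ with CD4cre was designed to address the role of IKK1 in CD4+ T cells after IRI, although, as given above, the *Chuk* counts of the 2 groups overlapped. All 10 members had a negative log2 fold change, with a median of −2.43 beside a median of 0.02 over all 15653 genes tested. No member, and none of all genes (0%), passed the threshold, a false discovery rate (FDR) below 0.05 together with a difference of over 2-fold, in edgeR's quasi-likelihood test, whose smallest FDR over all genes was 0.0543. At an unadjusted p under 0.05, 8 of 10 members were lower, beside 8.91% of all genes tested (2592 genes in either direction), and 8 of 10 lay lower without overlap of the libraries, beside 8.44% of all genes. With DESeq2, 6 members passed the same threshold as lower, *Fos*, *Fosb*, *Jun*, *Junb*, *Jund* and *Ier5*, beside 4.02% of 12462 genes with an adjusted p. DESeq2, with its own filter and scaling, called 547 genes in all where edgeR called 0, and edgeR called 159 with a filter of 10 counts in every library, so that these calls depend on the test and the filter.

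Among the Fos genes, *Fos* encodes the classical partner of Jun proteins in AP-1. It was measured at 1973, 540 and 736 CPM in the CD4cre libraries and at 21.4, 50.9, 158, 249 and 203 CPM in CD4IKK1Δ. The groups did not overlap, and the log2 fold change was −2.99, with a standard error (SE) of 0.86 (FDR 0.178 with edgeR and adjusted p 0.0106 with DESeq2). *Fosb*, a paralog with a short splice form that lacks part of the activation domain, was measured at 49.1, 36.2 and 51.9 CPM in CD4cre and at 12.02, 14.4, 34.9, 27.4 and 13.2 CPM in CD4IKK1Δ. Its groups were narrowly separated, and the log2 fold change was −1.17 (SE 0.36, FDR 0.160 with edgeR and adjusted p 0.0344 with DESeq2).

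The Jun genes encode the partners that can also pair among themselves. *Jun* was measured at 2605, 1013 and 888 CPM in CD4cre and at 63.1, 117, 102, 344 and 281 CPM in CD4IKK1Δ, with a log2 fold change of −3.05 (SE 0.68, edgeR FDR 0.123, DESeq2 adjusted p 0.00100). *Junb*, which in T helper cells takes part in Th2 and Th17 programmes, was measured at 6123, 2808 and 2409 CPM in CD4cre and at 102, 155, 642, 822 and 666 CPM in CD4IKK1Δ. Neither gene overlapped between the groups. The log2 fold change of *Junb* was −2.99 (SE 0.77, edgeR FDR 0.155, DESeq2 adjusted p 0.000770). *Jund*, the member with the most constant expression in many tissues, was measured at 1838, 833 and 1342 CPM in CD4cre and at 123, 315, 386, 537 and 539 CPM in CD4IKK1Δ, which gave −1.81 (SE 0.49, edgeR FDR 0.158, DESeq2 adjusted p 0.00290). *Jund* had the smallest difference of the 3 Jun genes in value, and its groups did not overlap either. *Atf3*, a stress-induced bZIP factor that represses as a homodimer, had 1487, 472 and 1 counts in CD4cre and 2, 0, 0, 0 and 184 counts in CD4IKK1Δ. Libraries at or under the floor of 3 counts thus occurred in both groups, and the log2 fold change of −3.97 had an SE of 2.31 (edgeR FDR 0.455, DESeq2 adjusted p 0.447).

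Of the remaining members, *Ier5*, a nuclear protein linked to heat shock factor 1, had the smallest FDR. It was measured at 335, 195 and 162 CPM in CD4cre and at 36.9, 40.1, 61.1, 71.3 and 62.8 CPM in CD4IKK1Δ, with a log2 fold change of −2.08 (SE 0.28, edgeR FDR 0.0551, DESeq2 adjusted p 1.18e-09). Its spread within CD4IKK1Δ was small, with a highest library at 1.93 times the lowest, compared with 11.6 times for *Fos* and 21.0 times for *Ier2*. *Ier2*, a short nuclear protein without known DNA-binding domain, was measured at 1838, 721 and 750 CPM in CD4cre and at 17.5, 24.6, 164, 368 and 234 CPM in CD4IKK1Δ, which gave −2.77 (SE 1.03, edgeR FDR 0.261, DESeq2 adjusted p 0.0596). *Nr4a1* was measured at 418, 165 and 217 CPM in CD4cre and at 9.31, 22.5, 72.6, 106 and 146 CPM in CD4IKK1Δ, with a log2 fold change of −1.90 (SE 0.85, edgeR FDR 0.332, DESeq2 adjusted p 0.153). Neither *Ier2* nor *Nr4a1* overlapped between the groups, but neither passed the threshold with either tool. *Egr1* was the exception in size, at 360, 198 and 255 CPM in CD4cre and at 166, 182, 202, 178 and 211 CPM in CD4IKK1Δ. Its groups overlapped, and its log2 fold change was −0.53 (SE 0.17, edgeR FDR 0.172, DESeq2 adjusted p 0.0584). Within CD4IKK1Δ its highest library was 1.27 times its lowest, the smallest spread of the 10 members in this group.

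Without CD4IKK1Δ replicates 1 and 2, the log2 fold changes were smaller in size for all 10 members, from −3.26 (*Atf3*) to −0.46 (*Egr1*). Among them were −2.41 for *Fos*, −2.63 for *Jun*, −2.41 for *Junb*, −2.11 for *Ier2* and −1.30 for *Nr4a1*. *Ier5* then passed the threshold (−1.83, edgeR FDR 0.0422), and no other member did, beside 0.239% of all genes called lower. Leaving out CD4cre replicate 1, the highest control library for these genes, gave −2.22 for *Fos*, −2.38 for *Jun*, −2.18 for *Ier2* and −2.76 for *Atf3*, each over 1.5 times less in fold than with it. Leaving out CD4IKK1Δ replicate 4 alone also brought *Ier5* past it (−2.20, edgeR FDR 0.0335), as did a fit of all 11 libraries (−2.08, edgeR FDR 0.0168).

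**Figure D2:**
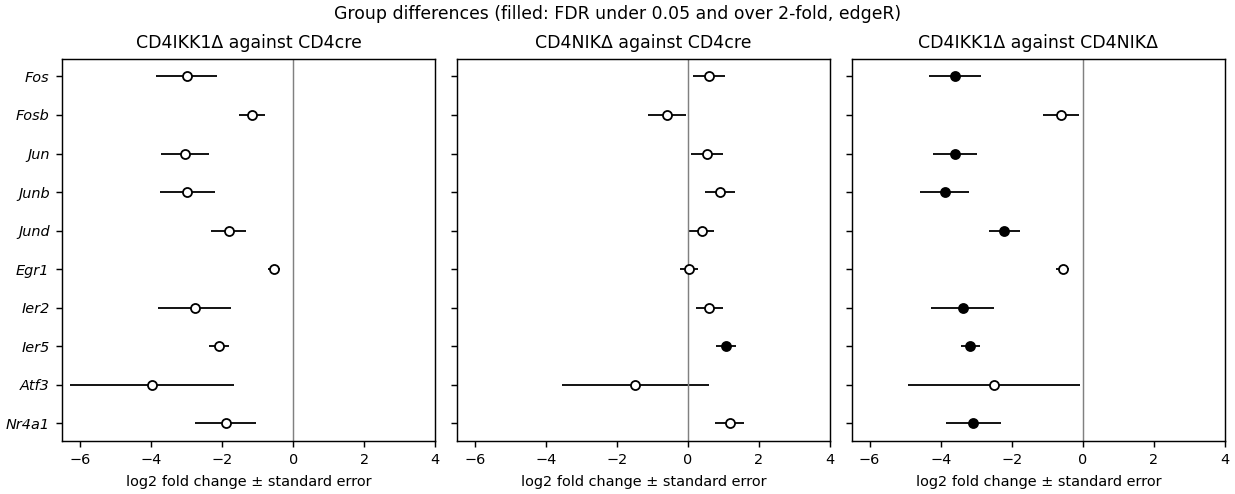
Log2 fold changes of the 10 members (points) with their standard errors (lines) in the 3 comparisons; filled points passed the threshold in edgeR (FDR below 0.05, over 2-fold). No point is filled for CD4IKK1Δ against CD4cre, only *Ier5* (1.07) for CD4NIKΔ against CD4cre, and 7 members for CD4IKK1Δ against CD4NIKΔ.

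The second comparison was designed to ask the same of NIK, the kinase upstream of IKK1 in noncanonical NFκB signalling. It shares the 3 CD4cre libraries with the comparison above, so that a high or low CD4cre library enters both. *Ier5* rose in CD4NIKΔ, with 389, 511 and 565 CPM beside 335, 195 and 162 CPM in CD4cre. The groups did not overlap, and the log2 fold change was 1.07 (SE 0.29, FDR 0.0342 with edgeR). It was the only member called, 1 of 10, beside 10.4% of all 15209 genes tested that were called higher and 6.99% called lower, and it was the only member without overlap in either direction (22.9% of all genes were higher without overlap). *Ier5* lost this call when any of CD4cre replicates 2 and 3 and CD4NIKΔ replicates 2 and 3 was left out (log2 fold changes of 0.90 to 1.07, edgeR FDR of 0.102 to 0.108). It also lost the call with upper-quartile factors and with library size alone, both just under 2-fold (0.95), and with the replicate block (1.13, edgeR FDR 0.0760).

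*Nr4a1*, which is induced by T cell receptor signalling, was measured at 372, 537 and 908 CPM in CD4NIKΔ. Only the lowest of these lay within the CD4cre range of 165 to 418 CPM, and the log2 fold change was 1.17 (SE 0.41, edgeR FDR 0.0732), with an adjusted p of 0.0182 in DESeq2, which called it as 1 of 2 members (with *Ier5*) beside 12.6% of all genes called higher. *Junb* was measured at 3943, 8636 and 8704 CPM, with a log2 fold change of 0.89 (SE 0.42, edgeR FDR 0.160). *Fos* was measured at 1367, 1471 and 2106 CPM, a range that overlapped that of CD4cre through CD4cre replicate 1 alone, with a log2 fold change of 0.60 (SE 0.45, edgeR FDR 0.367). *Jun* (1224, 2339 and 3055 CPM) had a log2 fold change of 0.54, *Ier2* (1268, 1752 and 2042 CPM) of 0.60 and *Jund* (1102, 1916 and 2275 CPM) of 0.38, with edgeR FDR values between 0.277 and 0.451. Apart from *Nr4a1* with DESeq2, none of the members of this paragraph was called with either tool.

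CD4cre replicate 1 was the highest of the 3 CD4cre libraries for all members except *Fosb*. Without it, 5 members passed the threshold as higher in CD4NIKΔ, *Fos* (1.35), *Junb* (1.42), *Ier2* (1.18), *Ier5* and *Nr4a1* (1.64), beside 10.7% of all genes called higher in this fit, with the CD4cre group then at 2 libraries. *Jun* was at 1.19 in this fit and was not called (edgeR FDR 0.0674). *Egr1*, at 226, 264 and 348 CPM in CD4NIKΔ, had a log2 fold change of 0.03 (SE 0.26, edgeR FDR 0.949), whose sign turned negative under upper-quartile factors and under library size alone. *Fosb* was the widest of the well-counted members in CD4NIKΔ, at 9.05, 57.0 and 27.0 CPM, and had a log2 fold change of −0.59 (SE 0.54, edgeR FDR 0.463), which was −1.33 without CD4NIKΔ replicate 2 and −0.12 without replicate 1. *Atf3* had 0, 0 and 413 counts, with a log2 fold change of −1.48 (SE 2.06, edgeR FDR 0.639). The value rested on single libraries, with −0.27 without CD4cre replicate 1, −0.87 and −0.85 without CD4NIKΔ replicates 1 and 2, and −12.12 without CD4NIKΔ replicate 3, where the group was at 0 and the fitted value is no bound. The median over the 10 members was 0.57, beside −0.02 over all genes tested.

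Whether the 2 differences from CD4cre were themselves different was tested by comparing CD4IKK1Δ with CD4NIKΔ in a fit of all 11 libraries. *Fos*, *Jun*, *Junb*, *Jund*, *Ier2*, *Ier5* and *Nr4a1* were lower in CD4IKK1Δ, 7 of 10 members beside 18.5% of all 16546 genes tested that were called lower and 14.8% called higher, and 8 of 10 lay lower without overlap beside 24.4% of all genes. The largest difference was that of *Junb*, with a log2 fold change of −3.89 (SE 0.70, edgeR FDR 0.00181). *Jun* (−3.60, SE 0.62, edgeR FDR 0.00142) and *Fos* (−3.59, SE 0.74, edgeR FDR 0.00376) were close to it within their errors. *Ier5* had the smallest FDR, with −3.16 (SE 0.27, edgeR FDR 2.86e-05). The ratio of the group means was 14.9-fold for *Junb*, 12.1-fold for *Fos*, 12.2-fold for *Jun* and 8.97-fold for *Ier5*.

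*Ier2* (−3.38, SE 0.89, edgeR FDR 0.0126), *Nr4a1* (−3.08, SE 0.77, edgeR FDR 0.00989) and *Jund* (−2.21, SE 0.44, edgeR FDR 0.00250) completed the 7. *Egr1* differed less, with −0.57 (SE 0.19, edgeR FDR 0.0294), a difference below 2-fold. With no fold threshold, 8 of 10 members were lower, beside 22% of all genes. That FDR rose to 0.178 with upper-quartile factors and to 0.115 without CD4IKK1Δ replicates 1 and 2, while the direction stayed. *Fosb* (−0.61, SE 0.50, edgeR FDR 0.365) and *Atf3* (−2.50, SE 2.42, edgeR FDR 0.445) did not pass, and leaving out 1 CD4NIKΔ library turned the sign of each (0.17 for *Fosb* without replicate 2 and 8.09 for *Atf3* without replicate 3). Without replicate 3 the CD4NIKΔ group was at 0 counts for *Atf3*, so that the fitted value of 8.09 is no bound. Without CD4IKK1Δ replicates 1 and 2, 7 members were again called lower, from −1.85 (*Jund*) to −3.31 (*Junb*), beside 17.1% of all genes. Without CD4NIKΔ replicate 3, *Nr4a1* missed the threshold (−2.67, edgeR FDR 0.0514).

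Other transcripts moved with the members over the same libraries, and their part in the differences was not tested. The 15 heat shock genes summed to 11636 to 25684 CPM in CD4cre, 4582 to 6997 CPM in CD4IKK1Δ and 29478 to 71629 CPM in CD4NIKΔ. Much of the sums in CD4cre and CD4NIKΔ was the pair *Hspa1a* and *Hspa1b*. The median log2 fold change of the 15 genes was −0.65 in CD4IKK1Δ against CD4cre. In CD4NIKΔ against CD4cre it was 0.24, with 5 of the 15 below 0. *Hspa1a*, an inducible chaperone gene of the same stress responses, was measured at 9514, 5067 and 3568 CPM in CD4cre, at 11.2, 89.5, 541, 1010 and 1341 CPM in CD4IKK1Δ, and at 11009, 22726 and 31913 CPM in CD4NIKΔ. Its groups did not overlap between CD4IKK1Δ and the rest, and reads of its near-identical copy *Hspa1b* may be divided between the pair in an uncertain way. The 16 T cell markers summed to 1755 to 3182 CPM in CD4cre, 217 to 1567 CPM in CD4IKK1Δ and 8507 to 12676 CPM in CD4NIKΔ. Within this list *Thy1* went the other way, with 137 ± 22.0, 175 ± 24.1 and 119 ± 22.1 CPM in the same order. Much of the lowest CD4IKK1Δ sum was thus *Thy1*. The sums of the 20 myeloid markers overlapped between the groups, with 1353 to 2881, 1172 to 1420 and 1322 to 1840 CPM. Much of these sums, though, was *Cst3*, a widely expressed protease inhibitor (872 ± 32.7 CPM in CD4cre, 1098 ± 126 in CD4IKK1Δ and 499 ± 132 in CD4NIKΔ). Of the 14 myeloid markers tested in CD4IKK1Δ against CD4cre, 12 had a negative log2 fold change, 7 were lower at an unadjusted p under 0.05 (8.91% of all genes) and the median was −2.02 (0.02 over all genes), with −2.61 for the Fc receptor gene *Fcgr3* and −2.52 for the complement gene *C1qc*.

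**Figure D3:**
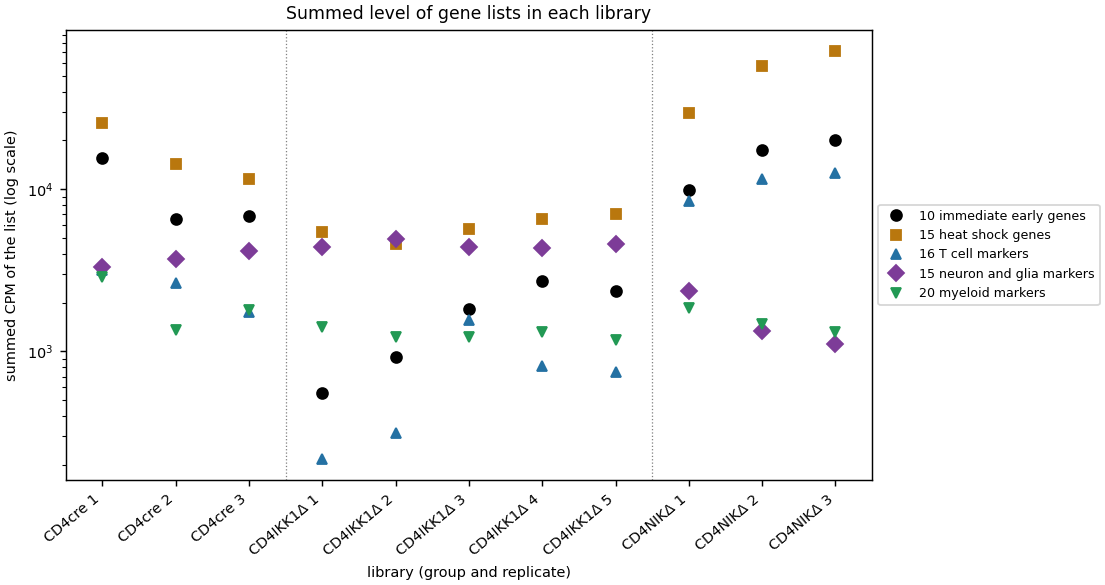
Summed level (CPM, logarithmic axis) of the 10 immediate early genes, 15 heat shock genes, 16 T cell markers, 15 neuron and glia markers and 20 myeloid markers in each library, with groups separated by dotted lines. The immediate early sum is lowest in CD4IKK1Δ (551 to 2703 CPM), where the T cell sum is lowest as well (217 to 1567 CPM) and the neuron and glia sum is highest (4323 to 4905 CPM).

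The counts of the members were therefore also set against the T cell receptor constant-region counts of the same library. The sum of the members per constant-region count was 5.91 to 11.3 in CD4cre, 2.83 to 208 in CD4IKK1Δ with a median of 10.3, and 2.98 to 3.18 in CD4NIKΔ. On this scale CD4NIKΔ lay below CD4cre, whereas in CPM its mean was higher and the libraries of these groups overlapped. CD4IKK1Δ spanned both. *Junb* gave 2.54 to 4.45 per constant-region count in CD4cre, 0.995 to 38.5 in CD4IKK1Δ and 1.19 to 1.57 in CD4NIKΔ. *Egr1* gave 0.179 to 0.406, 0.313 to 62.6 and 0.0481 to 0.0681 in the same order. These ratios are a description, since the constant-region counts in CD4IKK1Δ replicate 1 were only 41.

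The members varied together over the 11 libraries to different degrees. Pearson's r of log2(CPM + 1) was over 0.9 in 21 of the 45 pairs, all of them among *Fos*, *Jun*, *Junb*, *Jund*, *Ier2*, *Ier5* and *Nr4a1*, with the highest value of 0.988 for *Fos* and *Junb*. *Egr1* correlated with the others at a median r of 0.82, *Fosb* at 0.50 and *Atf3* at 0.46. The points share library, depth and T cell content, and 3 groups of different level, so that these values describe the libraries and carry no test.

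**Figure D4:**
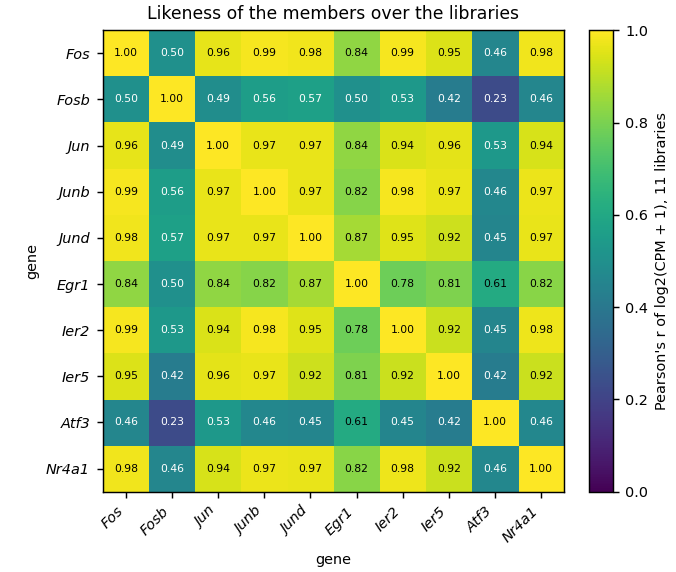
Pearson's r of log2(CPM + 1) over the 11 libraries for each pair of members, from 0 (dark) to 1 (bright). *Fos*, *Jun*, *Junb*, *Jund*, *Ier2*, *Ier5* and *Nr4a1* form a block over 0.9, *Egr1* reaches at most 0.87, and *Fosb* and *Atf3* stay at or below 0.61.

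The genes outside the list whose pattern was most like the mean of the standardized member levels, among 16536 genes, were *Gna13* (r = 0.986), *Rgcc* (0.985), *Fam177a* (0.983), *Gadd45g* (0.983) and *Nop53* (0.978). *Gna13* encodes a G protein alpha subunit and was measured at 117 ± 51.7 CPM in CD4cre (SD, n = 3), 27.5 ± 15.3 in CD4IKK1Δ (SD, n = 5) and 135 ± 40.2 in CD4NIKΔ (SD, n = 3). *Gadd45g*, a stress and growth arrest gene, was measured at 267 ± 83.0, 126 ± 41.7 and 355 ± 108 CPM. Of these 16536 genes, 380 had an r over 0.9, and the median r was 0.02.

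To place the members among related genes, 7 other lists were read in the same fits. Of 26 tested genes among 27 other immediate early genes, 20 were called lower in CD4IKK1Δ than in CD4NIKΔ (18.5% of all genes), with a median log2 fold change of −3.05, and 8 were called higher in CD4NIKΔ than in CD4cre (10.4% of all genes). *Myc*, a growth regulator, was measured at 58.3 ± 24.6 CPM in CD4cre, 13.0 ± 6.80 in CD4IKK1Δ and 207 ± 59.1 in CD4NIKΔ, with −3.98 between the last 2 groups (edgeR FDR 9.94e-05). *Btg2*, an antiproliferative early gene, fell there too (−3.19, edgeR FDR 0.000249). *Cd69*, an early surface marker of T cell activation, rose in CD4NIKΔ against CD4cre by 2.97 (SE 0.50, edgeR FDR 0.00969), and *Rgs1*, a G protein regulator, by 2.56 (SE 0.49, edgeR FDR 0.0145). Against CD4cre, 18 of the 26 genes were lower in CD4IKK1Δ at an unadjusted p under 0.05 (8.91% of all genes) and 0 were called by edgeR, with a median of −2.11. The lowest p values there were those of the clock gene *Per1* (−0.89, edgeR FDR 0.0850) and of *Myc* (−2.16, edgeR FDR 0.0878).

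The feedback genes encode dual-specificity phosphatases, Sprouty proteins and NFκB inhibitors that are induced by the same signals and shut them off. Of 13 tested of 14, 8 were called higher in CD4NIKΔ than in CD4cre (10.4% of all genes), 11 lower in CD4IKK1Δ than in CD4NIKΔ (18.5%), and 7 were lower in CD4IKK1Δ than in CD4cre at an unadjusted p under 0.05 (8.91%). *Tnfaip3*, which encodes the NFκB inhibitor A20, rose in CD4NIKΔ against CD4cre by 1.68 (SE 0.17, edgeR FDR 0.00230) and *Dusp6* by 1.74 (SE 0.31, edgeR FDR 0.0114). *Spry1* (−4.67, edgeR FDR 0.000132) and *Nfkbiz* (−3.07, edgeR FDR 0.000298) were lower in CD4IKK1Δ than in CD4NIKΔ.

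Among the known T cell targets of AP-1, such as cytokines and costimulatory receptors, 9 of 12 tested of 14 were called higher in CD4NIKΔ than in CD4cre (10.4% of all genes) and 10 of 12 lower in CD4IKK1Δ than in CD4NIKΔ (18.5%). The T cell markers moved in a like way, with 13 of 16 called higher in CD4NIKΔ than in CD4cre (10.4% of all genes) and 1 below 0. Their median log2 fold change was 2.06, beside 2.21 for the AP-1 targets and −0.02 over all genes. *Cd40lg*, the ligand through which T cells help B cells, rose by 3.02 (SE 0.36, edgeR FDR 0.00339) and *Icos*, a costimulatory receptor, by 2.27 (SE 0.29, edgeR FDR 0.00405) in CD4NIKΔ against CD4cre. *Il2ra*, the alpha chain of the high-affinity interleukin-2 receptor, was measured at 12.5 ± 1.33 CPM in CD4cre, 0.999 ± 0.632 in CD4IKK1Δ and 31.9 ± 11.9 in CD4NIKΔ. Between CD4IKK1Δ and CD4cre its log2 fold change was −3.64 (SE 0.62, edgeR FDR 0.0551), and between CD4IKK1Δ and CD4NIKΔ it was −5.00 (SE 0.54, edgeR FDR 7.40e-05). *Ctla4*, an inhibitory receptor, also fell between the latter groups (−5.61, edgeR FDR 0.00140). Of 11 genes of this list tested in CD4IKK1Δ against CD4cre, 4 were lower at an unadjusted p under 0.05 (8.91% of all genes) and 7 lay lower without overlap (8.44%).

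The remaining bZIP partners had fold changes of both signs, but all of their calls were in the direction of those of the members. Of 13 tested of 15, 2 were called higher in CD4NIKΔ than in CD4cre, *Batf* (1.45, SE 0.29, edgeR FDR 0.0166) and *Creb1* (2.18, SE 0.47, edgeR FDR 0.0193), beside 10.4% of all genes, and 7 were called lower in CD4IKK1Δ than in CD4NIKΔ, beside 18.5%. *Atf4*, a factor of amino acid stress, was measured at 335 ± 87.9 CPM in CD4cre, 196 ± 30.3 in CD4IKK1Δ and 504 ± 112 in CD4NIKΔ. Of the 9 other EGR, NR4A and IER genes, 2 were called higher and 1 lower in both comparisons with calls (10.4% and 6.99% of all genes in CD4NIKΔ against CD4cre, 14.8% and 18.5% in CD4IKK1Δ against CD4NIKΔ). *Egr3*, a paralog of *Egr1*, moved against the members, with a fall of 1.09 on the log2 scale in CD4NIKΔ against CD4cre (SE 0.32, edgeR FDR 0.0451) and 1.49 higher in CD4IKK1Δ than in CD4NIKΔ (SE 0.25, edgeR FDR 0.000625). *Nab1*, a corepressor of EGR proteins, was higher in CD4NIKΔ than in CD4cre (3.96, edgeR FDR 0.00842) and lower in CD4IKK1Δ than in CD4NIKΔ (−2.81, edgeR FDR 0.00346).

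The 27 upstream regulators, kinases, serum response and NFAT factors that drive the members as existing proteins, went both ways. Between CD4IKK1Δ and CD4NIKΔ, 7 were called higher and 8 lower (14.8% and 18.5% of all genes), and the median log2 fold change was 0.04 beside 0.06 over all genes. *Nfatc3*, a calcium-regulated factor of T cells, was lower in CD4IKK1Δ than in CD4NIKΔ (−3.47, SE 0.39, edgeR FDR 8.28e-05), whereas *Mapk3*, encoding ERK1, was higher (1.48, SE 0.17, edgeR FDR 9.28e-05). In CD4NIKΔ against CD4cre, 3 were called higher and 4 lower of 26 tested (10.4% and 6.99% of all genes), among them *Nfatc3* (1.64, edgeR FDR 0.00702) and *Mrtfb*, an actin-regulated coactivator (−1.19, edgeR FDR 0.0127). Heat shock genes were called in 4 of 15 as higher in CD4NIKΔ than in CD4cre (10.4% of all genes) and in 7 of 15 as lower in CD4IKK1Δ than in CD4NIKΔ (18.5%), with *Hspa5* at 1.61 (edgeR FDR 0.00824) and −2.01 (edgeR FDR 4.01e-05). *Hspa8*, a constitutive chaperone, was measured at 1726 ± 116 CPM in CD4cre and 1054 ± 116 in CD4IKK1Δ, a log2 fold change of −0.71 (SE 0.10, edgeR FDR 0.0551).

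**Figure D5:**
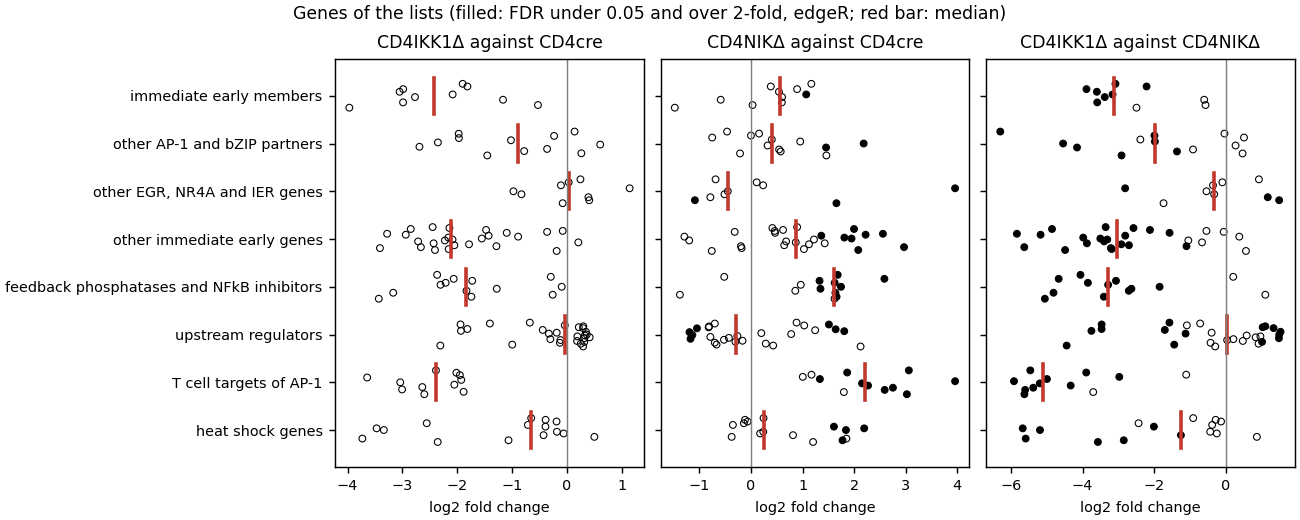
Log2 fold changes of the genes of 8 lists in the 3 comparisons, with 1 point per gene, filled where the FDR is under 0.05 and the difference over 2-fold in edgeR, and a red bar at the median of the list. The member median is −2.43, 0.57 and −3.12 from left to right, and that of the upstream regulators is −0.04, −0.28 and 0.04, with genes on both sides.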

How the data were processed

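Estimated counts were deposited by the authors as 1 value per gene symbol and library, without normalization. Per the study's methods, RNA of FACS-sorted renal CD4+ T cells was amplified with a SMARTer kit, reads were trimmed with Trimmomatic and assigned with kallisto, whose version and annotation are not given in the sources used here. The methods name GRCm39, whereas the submitters' processing notes list mm10. Since kallisto divides reads among transcripts, 35.3% to 41.8% of each library's values carried decimals, and all values were rounded. No 2 of the 11 libraries were identical (55 pairs).

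Each group was tested against CD4cre with its own libraries, and CD4IKK1Δ against CD4NIKΔ with all 11. The tests used edgeR 4.0.16 in R 4.3.3, with its expression filter, TMM factors, a robust quasi-likelihood fit and F test, and Benjamini-Hochberg adjusted p-values (FDR) over all genes tested. A call required an FDR below 0.05 and over 2-fold. Printed CPM use TMM factors from all 11 libraries. Groups were taken from the genotype labels, each library being 1 mouse. The scripts were tested on simulated data. The alternatives were DESeq2 (1.42.0), other scaling factors, other filters on low counts, no fold threshold, all 11 libraries in the fit, the replicate number as a block, leaving out each library, and leaving out CD4IKK1Δ replicates 1 and 2, whose T cell receptor counts were already known to be the lowest.

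The members, the other gene lists and the tests were chosen with earlier results of these data known. All 10 members are named, from each other list up to 2 genes per comparison with the smallest p, and the 5 named genes most like the members over the 11 libraries (gene models without a name left out). *Hspa1a* is named outside this rule, after its values were seen. Marker sums add CPM over the list.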

Additional observations from a re-analysis of the deposited data

Results flagged for a closer look

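In CD4IKK1Δ, *Atf3* had 1 library far from the others, replicate 5 with 8.29 CPM, whereas the other 4 libraries were at or near 0. The gap to the nearest of them was 0.984 of the range of the group, above Dixon's 95% critical value for 5 samples. That value assumes normally distributed data, whereas 4 of these 5 libraries had at most 3 counts, so that the ratio is a description only. The differences from CD4cre were unequal between CD4IKK1Δ and CD4NIKΔ for 8 members by the direct test of these groups with all 11 libraries (edgeR, FDR under 0.05 and lower in CD4IKK1Δ), beside 22% of all 16546 genes. The log2 fold changes of CD4IKK1Δ against CD4NIKΔ were −3.59 for *Fos*, −3.60 for *Jun*, −3.89 for *Junb*, −2.21 for *Jund*, −0.57 for *Egr1*, −3.38 for *Ier2*, −3.16 for *Ier5* and −3.08 for *Nr4a1*. The summed T cell markers, heat shock genes and neuron and glia markers also differed without overlap between these 2 groups, and their part in the differences was not tested.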

How the results depend on the processing

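The count of members called in CD4IKK1Δ against CD4cre was 0, but 6 with DESeq2 and 1 (*Ier5*) with each of a filter of 1 count in any library, a filter of 10 counts in every library, all 11 libraries in the fit, and CD4IKK1Δ replicates 1 and 2 left out. Leaving out 1 library gave 0 to 1. In CD4NIKΔ against CD4cre the count of 1 became 2 with DESeq2 and with 10 counts in every library, 0 with upper-quartile factors, with library size alone and with the replicate block, and 0 to 5 with 1 library left out. In CD4IKK1Δ against CD4NIKΔ it was 7, or 8 with no fold threshold, and 6 to 7 with 1 library left out. The replicate block left 0 members called in CD4IKK1Δ against CD4cre and 7 in CD4IKK1Δ against CD4NIKΔ. It gave larger differences, over 1.5 times in fold, in CD4IKK1Δ against CD4cre for *Fos* (−3.93), *Jun* (−3.83), *Junb* (−4.03), *Ier2* (−4.64), *Nr4a1* (−3.23) and *Atf3* (−9.26), in CD4IKK1Δ against CD4NIKΔ for *Fos* (−4.59), *Jun* (−4.55), *Junb* (−4.81), *Ier2* (−5.07), *Nr4a1* (−4.32) and *Atf3* (−5.88), and in CD4NIKΔ against CD4cre for *Atf3* (−6.20). CD4IKK1Δ replicates 4 and 5 have no counterpart of their number, so that they add nothing to a blocked difference. The deviations of same-numbered libraries from their group means correlated at r of −0.156 to 0.114. The labels give a replicate number and no pairing, and such a correlation cannot show whether libraries were handled together. *Egr1* in CD4NIKΔ against CD4cre turned to −0.10 with upper-quartile factors and with library size alone, which moved the median of all genes from −0.02 to −0.16 and −0.15, and with 1 library left out it lay between −0.14 and 0.28. In CD4IKK1Δ against CD4NIKΔ with 1 library left out, *Fosb* lay between −1.04 and 0.17 and *Atf3* between −8.13 and 8.09, the last with the CD4NIKΔ group at 0 counts. The cause of these changes was not tested. Of the member fold changes under the alternatives other than that with no fold threshold, 157 of 168, 121 of 139 and 186 of 189 kept direction and side of the threshold in the order of the comparisons above. Over all genes, calls went from 0 to 547 with DESeq2, 159 with 10 counts in every library, 129 with all 11 libraries and 48 with 1 count in any library in the first comparison, and from 2649 to 1185 with the block in the second. The share of lower calls went from 40.1% to 55.1% with upper-quartile factors and 51.0% with library size alone in the second, and from 55.7% to 44.5% with upper-quartile factors in the third. *Atf3* gave no value with 10 counts in every library, nor in CD4IKK1Δ against CD4cre without CD4IKK1Δ replicate 5. Apart from *Atf3*, the lowest count of a member in any library was 144.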

Other observations

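Markers of other cell types of kidney and blood were summed in each library as well. The 8 B cell markers summed to 70.0 to 140 CPM in CD4cre, 4.20 to 26.3 in CD4IKK1Δ and 198 to 670 in CD4NIKΔ, and the 8 NK and CD8 markers to 120 to 198, 0.582 to 167 and 971 to 1365 CPM. Much of the B cell sum was *Ighm*, the heavy chain of IgM (99.4 ± 38.2, 11.1 ± 9.08 and 492 ± 262 CPM), whereas *Ms4a1*, which encodes CD20, was higher without overlap in CD4IKK1Δ (1.61 ± 1.36 CPM) than in CD4cre (0.256 ± 0.155 CPM; edgeR FDR 0.299). Much of the NK and CD8 sum was *Nkg7*, a gene of cytotoxic granules (113 ± 45.4, 42.1 ± 68.2 and 978 ± 213 CPM). The 12 kidney tubule markers were low in all groups, with 19.1 to 84.5, 5.30 to 11.5 and 19.9 to 131 CPM. The 12 endothelial and fibroblast markers summed to 179 to 197, 194 to 240 and 99.7 to 126 CPM. The 7 erythroid markers summed to 2080 to 2680, 532 to 1612 and 1177 to 8185 CPM. *Cd4* itself had 1051 to 2040 counts in CD4cre, 32 to 1219 in CD4IKK1Δ and 4471 to 7775 in CD4NIKΔ, and *Cd3e* had 928 to 3202, 4 to 574 and 7527 to 12835 counts.

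The ratio of *Fosb* to *Fos*, both in CPM, was 2.49%, 6.71% and 7.06% in the CD4cre libraries, 56.2%, 28.3%, 22.1%, 11.0% and 6.48% in CD4IKK1Δ, and 0.662%, 3.88% and 1.28% in CD4NIKΔ. The ratio of *Ier2* to *Jund* in CPM was 1.00, 0.866 and 0.559 in CD4cre, 0.143, 0.0782, 0.426, 0.684 and 0.435 in CD4IKK1Δ, and 1.15, 0.914 and 0.897 in CD4NIKΔ. Both ratios overlapped between CD4cre and CD4IKK1Δ and did not overlap between CD4IKK1Δ and CD4NIKΔ.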
